A study of Mus musculus with 6 samples.

Results

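The genes described are 9 transcription factors of the enteroendocrine lineage, the hormone-secreting cells of the gut epithelium: Neurog3, Neurod1, Pax4, Pax6, Isl1, Nkx2-2, Insm1, Rfx6 and Fev. They were listed by name, and a gene was measured where a row of the array table carried its symbol and no other. This held for 8 of the 9 genes, each with 1 row, out of 19938 named genes. Fev had no such row and was not analysed here. RNA came from the whole epithelium of the mouse jejunum, which lies between duodenum and ileum, and 1 array was hybridised per animal. The 3 control animals carried R26-M2rtTA, a doxycycline-dependent transcriptional activator at the Rosa26 locus. The 3 transgenic animals carried R26-M2rtTA and a TRE-driven Musashi transgene, and both groups drank doxycycline for 24 h. The series text calls the transgene TRE-Msi1, while the genotype label of the same samples reads TRE-MSI2::R26-M2rtTA. The activator at this locus is not restricted to endocrine cells, and the sources used state no age or sex of the animals.

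The Msi1 signal was 6.94 ± 0.09 on control and 12.60 ± 0.09 on transgenic arrays (mean log2 signal ± SD, n = 3 each). Msi2 was 8.64 ± 0.06 and 8.22 ± 0.30, so the gene with the higher signal is the one in the series text. Transgenic replicate 1 stood apart: across genes it correlated at 0.922 to 0.951 with the other arrays, against 0.995 to 0.996 between controls and 0.996 between transgenic replicates 2 and 3. Results are therefore also given without that array where it moves them. All 10 epithelial identity markers, such as Epcam and Vil1, had a mean above 8 on the log2 scale in both groups, with list medians of 11.55 to 11.80 per array. Of these 10, Cdh1 rose by 0.34 (limma adjusted p = 0.0415, and up to 0.161 with any array but transgenic replicate 1 left out).

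Enteroendocrine cells arise from crypt progenitors that escape Notch signalling and switch on Atoh1, the entry factor of the secretory lineages. Neurog3, a basic helix-loop-helix (bHLH) factor, is then expressed briefly and commits the cell to an endocrine fate. It acts through later factors such as Neurod1, Insm1, Pax4, Nkx2-2, Rfx6, Isl1 and Pax6, which carry the cell through differentiation and set which hormone genes it expresses. These cells are rare in the epithelium. In RNA of the whole epithelium, fewer cells of a type and less RNA per cell cannot be told apart.

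The bases just upstream of the transcription start are shown for the 2 members that fell, Neurog3 and Rfx6, and for Neurod1, whose transgenic arrays disagreed. They come from RefSeq on GRCm38.p6, in which 7 of the 9 members had a promoter entry. The Neurog3 stretch is chr10:62132840-62133089 on the plus strand, that of Rfx6 chr10:51685268-51685517 on the plus strand, and that of Neurod1 chr2:79456637-79456886 on the minus strand, each 250 bases long and read 5′ to 3′ towards the start. Capitals mark each match to the E-box CANNTG, the site type that bHLH proteins such as Neurog3 and Neurod1 bind, or to the N-box CACNAG, a site type of the Hes repressors, on either strand.
Neurog3: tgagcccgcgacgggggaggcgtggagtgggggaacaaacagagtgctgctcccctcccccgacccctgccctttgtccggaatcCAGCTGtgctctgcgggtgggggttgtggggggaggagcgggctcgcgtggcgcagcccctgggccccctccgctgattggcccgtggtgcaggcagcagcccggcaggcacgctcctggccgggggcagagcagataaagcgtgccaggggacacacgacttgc
Rfx6: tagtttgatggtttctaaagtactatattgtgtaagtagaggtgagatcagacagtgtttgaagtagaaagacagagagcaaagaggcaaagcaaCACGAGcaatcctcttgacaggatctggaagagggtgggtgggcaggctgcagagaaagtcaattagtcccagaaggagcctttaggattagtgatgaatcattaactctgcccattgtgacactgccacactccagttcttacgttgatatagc
Neurod1: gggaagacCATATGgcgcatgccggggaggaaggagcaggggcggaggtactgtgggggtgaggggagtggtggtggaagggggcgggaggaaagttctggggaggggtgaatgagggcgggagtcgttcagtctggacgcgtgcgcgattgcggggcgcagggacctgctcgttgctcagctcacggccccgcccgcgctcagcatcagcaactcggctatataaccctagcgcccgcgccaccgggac
The sequences share little in make-up. Neurog3 and Neurod1 had 71.2% and 67.6% G and C, against 44% in Rfx6 and a median of 52.4% over 32851 mouse promoter stretches of this length. Neurog3 held 1 E-box, CAGCTG, starting 165 bases before the start, and Neurod1 held 1, CATATG, at 242 bases. Rfx6 held no E-box and 1 N-box match, CACGAG, at 155 bases. An E-box occurred in 66.2% and an N-box in 36.7% of all such stretches, so either match is common. The homeodomain core TAAT, searched on both strands, occurred 3 times in Rfx6, 0 times in Neurog3 and Neurod1, and at least once in 54.9% of all stretches.

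Of the 8 measured members, 2 fell and 0 rose at an adjusted p under 0.05 in limma, a moderated linear model fitted here over all 19938 genes. Over all genes 11.9% passed, 5.84% as lower and 6.04% as higher, and with 8 genes a count of 2 is not set apart from that background here. At an unadjusted p under 0.05 there were 3 members, all lower, beside 25% of all genes. The members' median difference, transgenic minus control, was -0.13 log2 units, beside -0.04 for all genes, and without transgenic replicate 1 it was -0.07, beside -0.03. With all arrays 7 of the 8 members were lower in the mean. The groups did not overlap for 4 members, all lower, beside 34.2% of all genes, 18.2% as lower and 16% as higher. With 3 arrays per group an exact permutation test (two-sided) has 0.1 as its smallest possible p, which it gave for those 4 members.

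**Figure D1:**
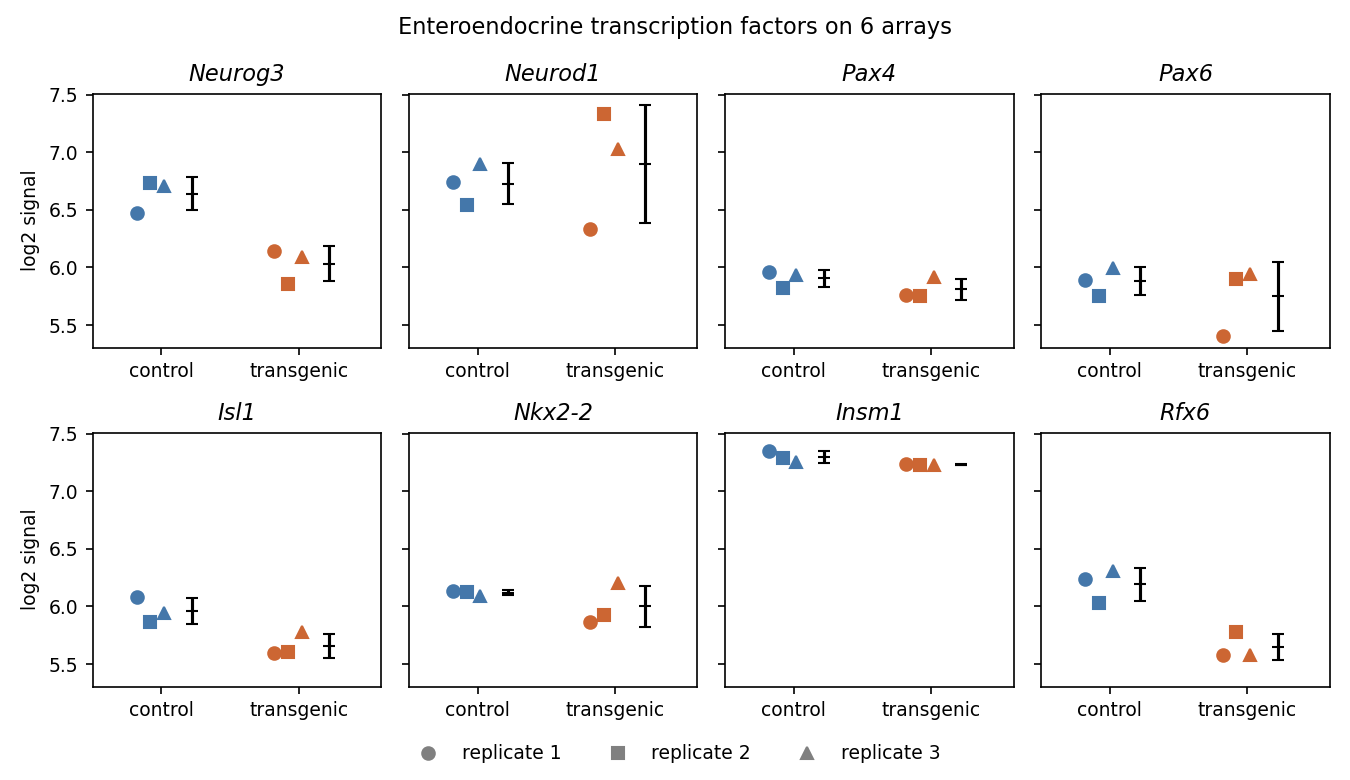
Log2 signal of the 8 measured members (y axis) in the control and transgenic groups (x axis). Each symbol is 1 array, with its shape giving the replicate number, and the black bars show the mean and SD of 3 arrays. Neurog3 and Rfx6 lie lower on every transgenic array, while the Neurod1 arrays of the transgenic group lie on both sides of the controls.

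Neurog3 (row 10363545, chromosome 10), which commits progenitors to the endocrine fate, fell. Its log2 signal was 6.48, 6.73 and 6.71 on control replicates 1, 2 and 3, and 6.14, 5.86 and 6.09 on transgenic replicates 1, 2 and 3. Every transgenic array lay below every control, and transgenic replicate 1 was not the most extreme. The means were 6.64 ± 0.14 and 6.03 ± 0.15 (SD, n = 3 each), a difference of -0.61 (SE 0.119, 95% interval -0.89 to -0.32, limma adjusted p = 0.0262), or 1.52-fold lower. Without transgenic replicate 1 the difference was -0.66 (limma adjusted p = 0.00287), in a fit where 14.5% of all genes passed as lower, against 5.84% with all arrays. The call was lost when any other array was left out, with limma adjusted p of 0.0618, 0.116 and 0.11 without control replicates 1, 2 and 3, and 0.0725 and 0.0588 without transgenic replicates 2 and 3. The difference stayed between -0.69 and -0.52 in all 6 of these fits.

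Rfx6 (row 10363090, chromosome 10), a winged-helix factor that acts after Neurog3 and is needed for hormone gene expression, fell by a similar amount. Its signal was 6.24, 6.03 and 6.30 on control replicates 1, 2 and 3, and 5.58, 5.78 and 5.58 on transgenic replicates 1, 2 and 3. Again the groups were apart, with the nearest arrays 0.25 log2 units from each other. The difference was -0.54 (SE 0.11, 95% interval -0.81 to -0.28, limma adjusted p = 0.0283), or 1.46-fold lower, and -0.51 without transgenic replicate 1 (limma adjusted p = 0.00892). In the fit without transgenic replicate 1, 14.5% of all genes passed as lower. As for Neurog3, the call was lost without any other array, with limma adjusted p of 0.13, 0.0551 and 0.114 without control replicates 1, 2 and 3, and 0.0519 and 0.074 without transgenic replicates 2 and 3. Rfx6 and Neurog3 are on the same chromosome, and 4 of the other members, Neurod1, Pax6, Nkx2-2 and Insm1, are on chromosome 2.

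Neurod1 (row 10484276), the bHLH factor that follows Neurog3 as cells leave the progenitor state, differed between arrays of the same group. Its signal was 6.74, 6.54 and 6.89 on the controls, 6.33 on transgenic replicate 1, and 7.33 and 7.03 on transgenic replicates 2 and 3. Transgenic replicate 1 was the lowest of the 6 arrays and the other transgenic arrays were the highest. With all arrays the difference was 0.17 (SE 0.261, 95% interval -0.46 to 0.81) and did not pass (limma adjusted p = 0.767). Without transgenic replicate 1 Neurod1 passed as higher, by 0.45 (SE 0.132, limma adjusted p = 0.0329), in a fit where 28.6% of all genes passed and 14% passed as higher. Without transgenic replicate 2 the difference was -0.05. Neurog3 was lower by 0.66 on the same arrays on which Neurod1 was higher.

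Isl1 (row 10412335, chromosome 13), a LIM-homeodomain factor of endocrine cells in gut and pancreas, was lower but did not pass. Its signal was 6.08, 5.86 and 5.94 on the controls and 5.59, 5.60 and 5.78 on the transgenic arrays, with no overlap. The difference was -0.30 (SE 0.0996, 95% interval -0.55 to -0.06, limma adjusted p = 0.117), and the adjusted p ranged from 0.022 with arrays weighted by quality to 0.573. The interval leaves out 0 because it is not adjusted for the number of genes tested.

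The other members gave smaller differences. Insm1 (row 10476814), a zinc-finger factor active in early endocrine cells, was 7.35, 7.28 and 7.26 on the controls and 7.24, 7.23 and 7.23 on the transgenic arrays. The groups did not overlap, but by a margin of only 0.021 log2 units. The Insm1 difference was -0.07 (95% interval -0.24 to 0.11, limma adjusted p = 0.665). Pax4 (row 10543530, chromosome 6), a paired-homeodomain factor of early endocrine cells, was 5.96, 5.82 and 5.94 against 5.76, 5.75 and 5.92, and these overlapped. Its difference was -0.10 (95% interval -0.31 to 0.12, limma adjusted p = 0.59). Nkx2-2 (row 10488366), a homeodomain factor needed for several hormone cell types, was 6.14, 6.12 and 6.09 against 5.87, 5.93 and 6.21. Transgenic replicate 3 was above all controls and the other transgenic arrays below them, and the difference was -0.12 (95% interval -0.38 to 0.15, limma adjusted p = 0.596). Pax6 (row 10474312), which activates the proglucagon gene among others, was 5.89, 5.75 and 6.0 on the controls, 5.40 on transgenic replicate 1, and 5.90 and 5.94 on the other transgenic arrays. Its difference of -0.13 (95% interval -0.54 to 0.27, limma adjusted p = 0.711) was 0.04 without transgenic replicate 1. The estimated differences of Neurog3 and Rfx6 lie outside the unadjusted intervals of all 4 genes. The lower ends of these run from -0.54 for Pax6 to -0.24 for Insm1. For Rfx6 the margin to Pax6 is small, at -0.545 against -0.536. The intervals of Neurog3 and Rfx6, which reach up to -0.32 and -0.28, both overlap those of Pax6 and Nkx2-2, and that of Rfx6 also overlaps that of Pax4. A difference between members was not tested.

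**Figure D2:**
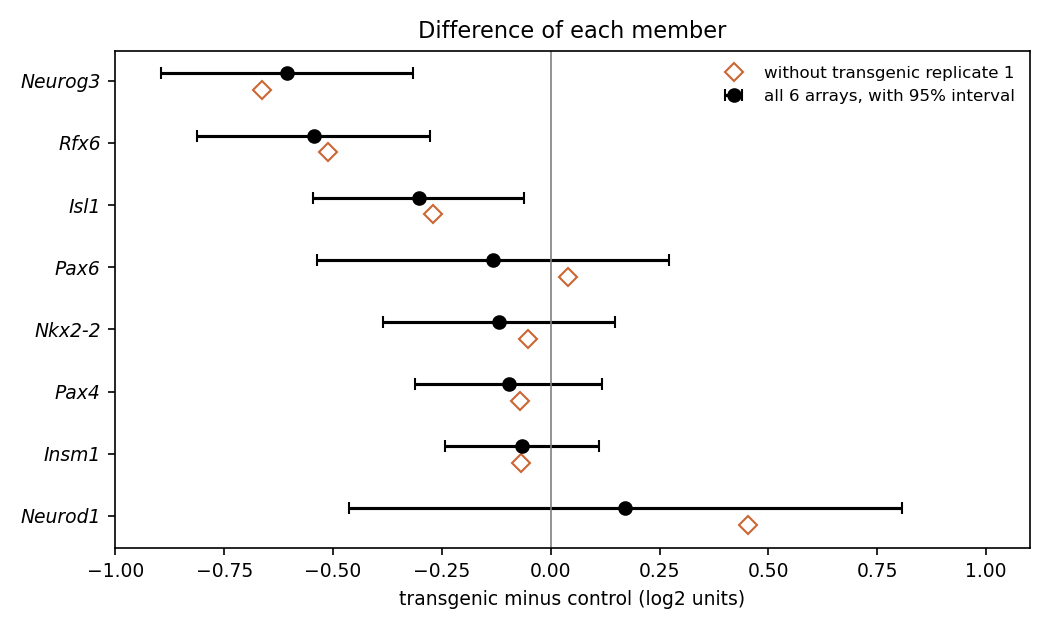
Difference between transgenic and control arrays in log2 units (x axis) for each member (y axis). Black points and bars give the limma estimate and its unadjusted 95% interval over 6 arrays, and open diamonds give the estimate without transgenic replicate 1. Neurod1 and Pax6 move most between the estimates, from 0.17 to 0.45 and from -0.13 to 0.04.

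The calls of Neurog3 and Rfx6 also depended on the settings of the fit, which the plot of adjusted p by setting gives for the 4 members nearest the threshold in any setting.

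**Figure D3:**
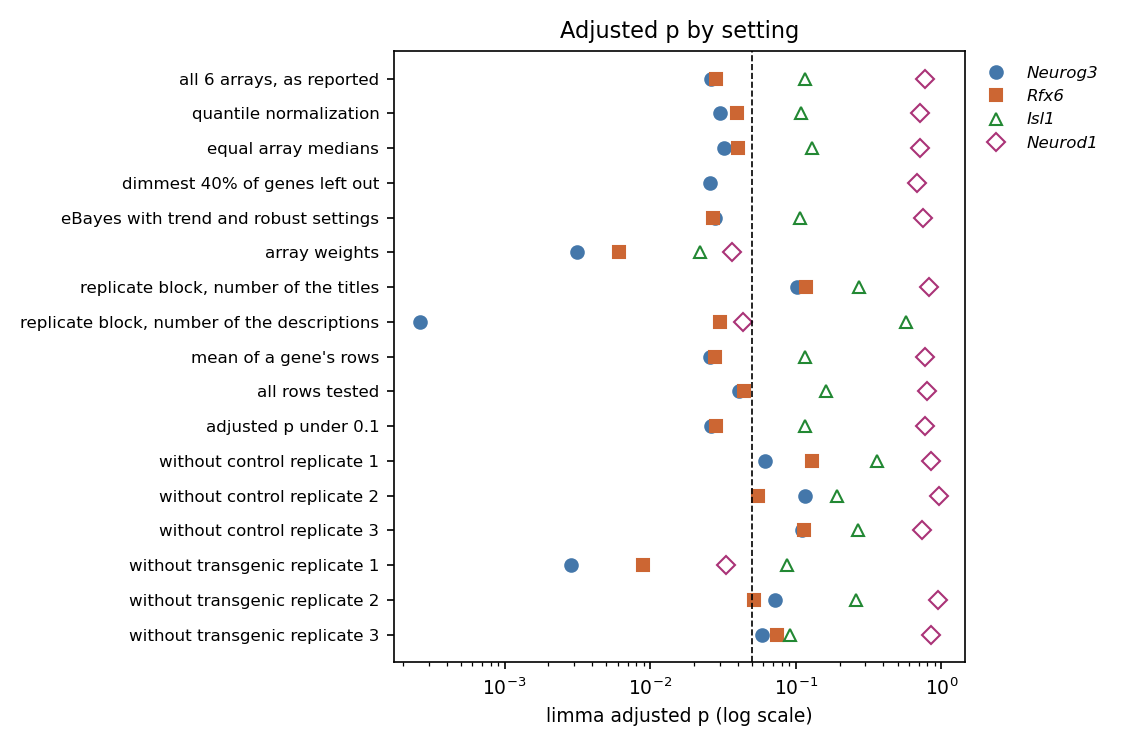
Limma adjusted p (x axis, log scale) of Neurog3, Rfx6, Isl1 and Neurod1 under each setting (y axis). The dashed line is 0.05. Neurog3 and Rfx6 lie to its right with the title numbers as a block and without any array but transgenic replicate 1, and Neurod1 lies to its left with array weights, with the description numbers as a block and without transgenic replicate 1.

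Many of these signals were dim. The table gave no detection calls, so the 1027 olfactory receptor genes, most of which are silent outside sensory tissue, served as a guide to dim signal. Their mean signals had a median of 4.16 and a 95th percentile of 5.81 on the log2 scale. For Rfx6, 97.2% of the olfactory receptor genes were dimmer on the control arrays and 93.1% on the transgenic arrays, and for Isl1 the shares were 96.2% and 93.2%. For Neurog3 they were 98.6% and 96.9%, and for Insm1 99.6% and 99.7%. On the transgenic arrays Pax4 and Pax6 also lay below the 95th percentile of these genes, with shares of 94.9% and 94.3%. The transgenic signal of Rfx6, against which its fold is given, was thus in the dim range of this guide. Over all 19938 genes the 5th and 95th percentiles of the differences were -0.83 and 0.79, a range that holds the differences of all 8 members.

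The members did not move as a block across the arrays. Over the 6 arrays Neurog3 had a Pearson correlation of 0.78 with Rfx6 and 0.74 with Isl1, and Isl1 had one of 0.83 with Rfx6 and 0.88 with Pax4. Neurod1 correlated at 0.77 with Pax6, -0.47 with Neurog3 and -0.01 with Rfx6. These are descriptions over 6 arrays that share the group difference and transgenic replicate 1. Other named genes were then ranked by correlation, with predicted genes, genes with clone-type names and small RNAs passed over. Among the genes kept, the patterns most like that of Neurog3 were those of Vegfb (r = 0.997), Scn2b (0.992) and Hsd11b2 (0.991). Those most like Rfx6 were Ctage5 (0.999), Atg2b (0.996) and Pias3 (0.993). A correlation above 0.95 was found with 134 and 156 of the genes kept, for Neurog3 and Rfx6.

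Of 20 measured genes of Notch signalling and secretory commitment, which act before or beside Neurog3, 1 fell and 1 rose, with a median difference of -0.21. That is a share near the 5.84% of all genes that fell and the 6.04% that rose. Hes6, a Hes-family protein known to oppose Hes1, fell from 8.48, 8.52 and 8.36 on the controls to 7.47, 7.59 and 7.68 on the transgenic arrays. That is a difference of -0.87 (SE 0.0939, limma adjusted p = 0.00452), and its call held with each array left out in turn (limma adjusted p up to 0.0369). Rbpj, the DNA-binding partner of activated Notch, rose by 0.46 (limma adjusted p = 0.0408). Atoh1, at 9.39 ± 0.10 on control and 9.21 ± 0.11 on transgenic arrays (SD, n = 3 each), did not pass (limma adjusted p = 0.357). Without transgenic replicate 1, 8 of the 20 passed as lower and 3 as higher, beside 14.5% and 14% of all genes. Hes1, the Notch effector that represses Neurog3, was then -0.53 (limma adjusted p = 0.0456), against -0.32 with all arrays (limma adjusted p = 0.494). Others had a smaller adjusted p in that fit. Spdef and Foxa3 were at -0.70 and -0.68 (limma adjusted p = 4.32e-04 and 7.31e-04). Dll4 and Jag1 were at 0.47 and 0.36 (limma adjusted p = 0.00597 and 0.0147), Notch1 and Sox9 at -0.61 and -0.65 (limma adjusted p = 0.00145 and 0.00166). None of these genes passed with all arrays, where Dll4 and Sox9 had the opposite sign (-0.24 and 0.16).

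Of 7 measured E proteins and Id proteins, which pair with bHLH factors, 2 rose and 1 fell, and the other 4 did not pass. Beside them 11.9% of all genes passed. Tcf3, an E protein that pairs with Neurog3 and Neurod1, fell by 0.60 log2 units (SE 0.0901, limma adjusted p = 0.0111), from 8.27 to 8.33 on the controls to 7.63 to 7.84 on the transgenic arrays. Id1, which sequesters E proteins, rose by 0.70 (SE 0.118, limma adjusted p = 0.0162), and the E protein Tcf4 rose by 0.49 (SE 0.104, limma adjusted p = 0.0338). Id2 was -0.88 and did not pass (limma adjusted p = 0.313), and its signal was 8.48, 10.21 and 10.08 on transgenic replicates 1, 2 and 3. Id2 passed as lower without transgenic replicate 1, by -0.32 (limma adjusted p = 0.0289). Rbpj, Tcf3 and Tcf4 lost the call without any 1 control, Rbpj and Tcf4 also without transgenic replicate 2, and Tcf4 also without transgenic replicate 3 (limma adjusted p up to 0.17, 0.0697 and 0.134). Id1 lost it without control replicate 1 or 3 (limma adjusted p up to 0.0867).

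Of 18 measured other transcription factors known from gut or pancreatic endocrine cells, 2 fell and 0 rose, with a median of -0.11. Over all genes 5.84% fell and 6.04% rose, with a median of -0.04. Mlxipl, the glucose-responsive factor ChREBP, which enterocytes also express, fell by 1.97 log2 units (SE 0.254, limma adjusted p = 0.00731). Its signals were 9.92, 9.85 and 9.97 on the controls and 7.34, 8.24 and 8.26 on the transgenic arrays, and its call held with each array left out. Mnx1, a homeodomain factor, fell by 0.34 (limma adjusted p = 0.0399), a call that was lost in each fit leaving out 1 array other than transgenic replicate 1 (limma adjusted p up to 0.181). The Mnx1 means were 5.24 on control and 4.90 on transgenic arrays, both below the dim-signal percentile of 5.81. Rfx3, a relative of Rfx6, was -0.26 and did not pass (limma adjusted p = 0.155), but passed as lower without transgenic replicate 1 (-0.32, limma adjusted p = 0.0247). Etv1 was -0.27 (limma adjusted p = 0.238).

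**Figure D4:**
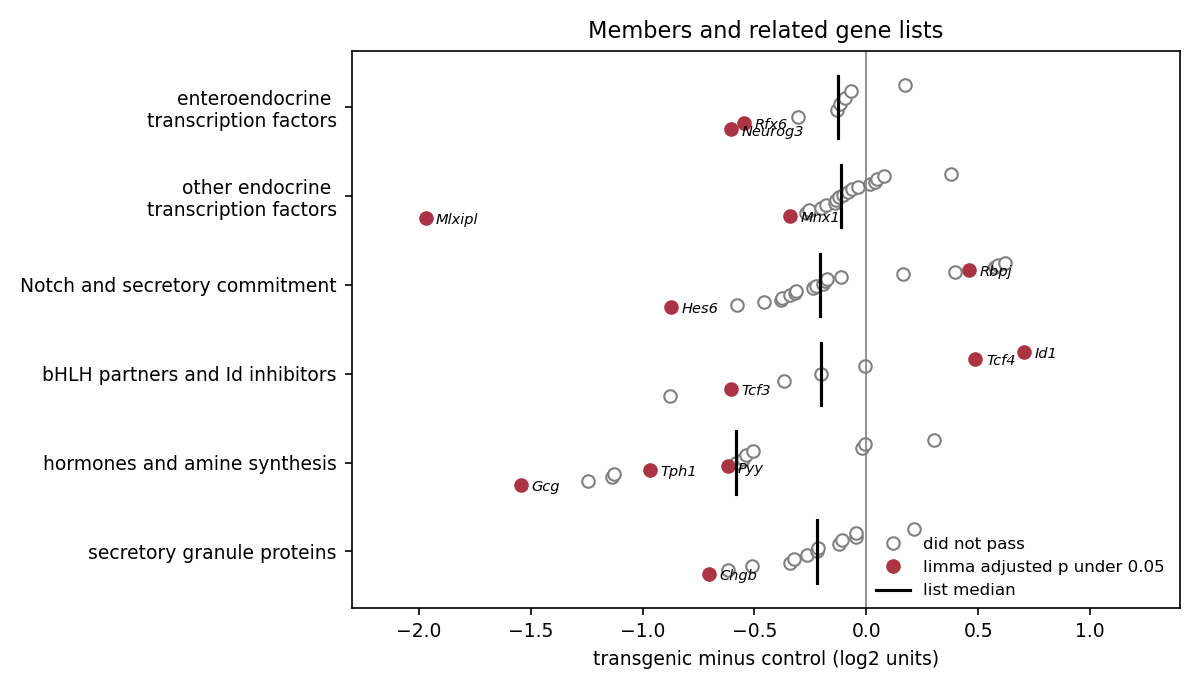
Difference between transgenic and control arrays in log2 units (x axis) for the 8 members and 5 related gene lists (y axis). Each circle is 1 gene, filled and named where its limma adjusted p is under 0.05, and the black line is the list median. The hormone list has a median of -0.58 and the members one of -0.13, and without transgenic replicate 1 these are -0.38 and -0.07.

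Of 13 hormone and amine synthesis genes 3 fell and 0 rose, with a median of -0.58, and of 13 secretory granule genes 1 fell and 0 rose, with a median of -0.22. Beside them 5.84% of all genes fell and 6.04% rose, with a median of -0.04, and the granule count is near that share. Without transgenic replicate 1 the hormone and granule medians were -0.38 and -0.12, beside -0.15 for the other endocrine factors and -0.07 for the members. The proglucagon gene Gcg was 8.64, 8.68 and 9.0 on the controls and 7.15, 7.26 and 7.29 on the transgenic arrays, a fall of 1.54 (SE 0.121, limma adjusted p = 0.00192) that held with each array left out. Tph1, which makes serotonin in enterochromaffin cells, fell by 0.97 (limma adjusted p = 0.0334), Pyy by 0.62 (limma adjusted p = 0.0224) and the granin gene Chgb by 0.70 (limma adjusted p = 0.0258). These 3 lost the call without any 1 control. Tph1 and Pyy also lost it without transgenic replicate 2, and Tph1 and Chgb without transgenic replicate 3 (limma adjusted p up to 0.123, 0.0863 and 0.106 for Tph1, Pyy and Chgb).

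Some products differed between the transgenic arrays in the way Neurod1 did. Pcsk1, the convertase that cleaves prohormones, deviated from the control mean by -1.05 log2 units on transgenic replicate 1 and by 0.88 and 0.81 on replicates 2 and 3. Cpe, which trims the cleaved hormones, deviated by -1.16, 0.54 and 0.29, and somatostatin, Sst, by -2.20, 0.35 and 0.33. For Neurod1 the deviations were -0.39, 0.61 and 0.30. Without transgenic replicate 1, Pcsk1 and Cpe passed as higher (0.85 and 0.42, limma adjusted p = 4.51e-04 and 0.013), and 8 of the 13 hormone and amine genes passed as lower, beside 14.5% of all genes. These genes were picked out after their values were seen.

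**Figure D5:**
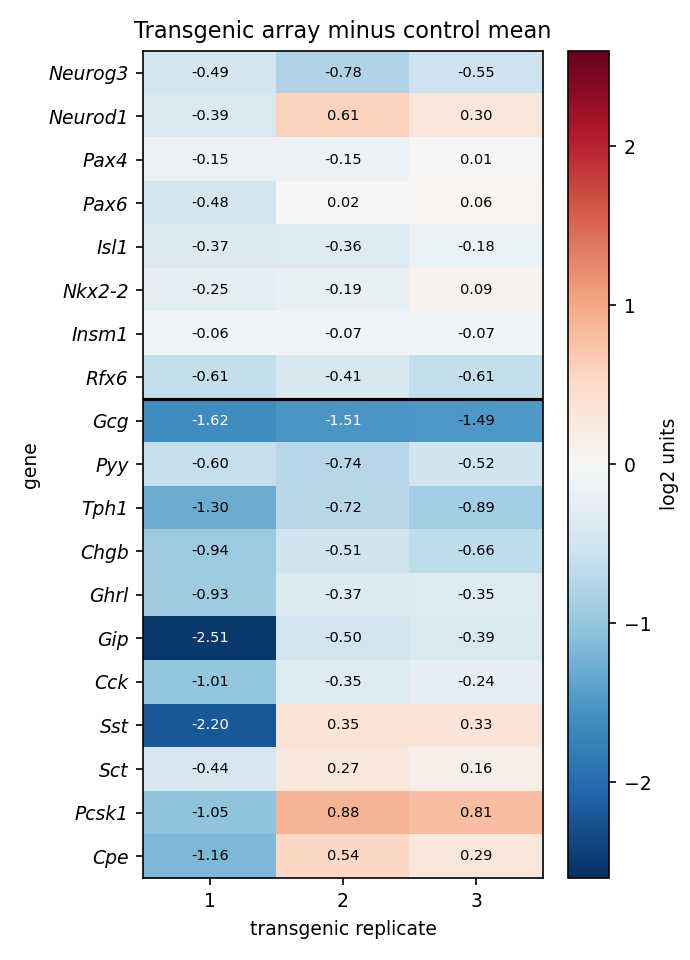
Deviation of each transgenic array (x axis) from the mean of the 3 controls, in log2 units, for the 8 members (above the line) and 11 hormone and granule genes (below it). Blue is lower and red higher. Neurog3, Isl1, Insm1, Rfx6, Gcg, Pyy, Tph1, Chgb, Ghrl, Gip and Cck are negative on all 3 arrays. Neurod1, Pax6, Sst, Sct, Pcsk1 and Cpe change sign between replicate 1 and the others, and Pax4 and Nkx2-2 are positive only on replicate 3.

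Markers of other cells that express some of these factors were also read. Isl1, Neurod1 and Insm1 are known from neurons and pancreatic islets too. Of 13 enteric neuron markers 1 fell and 0 rose, namely Snap25 (-0.62, limma adjusted p = 0.0473), which endocrine cells also express. That count is near the 5.84% of all genes that fell. Snap25 missed the threshold with equal array medians (limma adjusted p = 0.0548). It also missed it when control replicate 1, control replicate 3, transgenic replicate 2 or transgenic replicate 3 was left out (up to 0.184). The linear signals of the 13 markers summed to 765 to 798 on the controls and 656 to 739 on the transgenic arrays. At an unadjusted p under 0.05 in limma there were 3 neuron markers, Snap25, Ret (-0.29) and Prph (-0.25), beside 25% of all genes. Of 4 enteric glia markers 0 passed (225 to 262 and 214 to 238), with 0 at an unadjusted p under 0.05 in limma. Neuron marker medians per array were 5.6 to 6.0 on the controls and 5.7 to 5.8 on the transgenic arrays. Glia marker medians were 5.6 to 5.8 and 5.7 to 5.8, so both lists lay near the dim-signal percentile of 5.81. Of 5 islet markers 0 passed in limma and 1 had an unadjusted p under 0.05, Slc2a2, which enterocytes also express, and Ins2 had means of 5.33 and 5.32 on control and transgenic arrays, below the dim-signal percentile. Of 8 goblet cell markers 3 fell, beside 5.84% of all genes. These were Creb3l4 (-1.35, limma adjusted p = 0.00362), Creb3l1 (-0.61, limma adjusted p = 0.0215) and Muc2 (-0.33, limma adjusted p = 0.0363). Of the 8 goblet cell markers 5 passed as lower without transgenic replicate 1, beside 14.5% of all genes, and 1 islet marker did, Slc2a2 at -1.43 (limma adjusted p = 2.0e-05). Creb3l1 and Muc2 lost the call in each fit that left out 1 array other than transgenic replicate 1 (up to 0.1 and 0.163), and Muc2 was at 0.05002 with equal array medians. None of 8 tuft cell, 6 Paneth cell, 9 leukocyte and 8 smooth muscle and fibroblast markers passed in limma with all arrays, and 0, 0, 2 and 1 of them had an unadjusted p under 0.05. Without transgenic replicate 1, 0 tuft cell markers passed, 6 Paneth cell markers passed as lower, 5 leukocyte markers as lower and 1 as higher, and 1 smooth muscle and fibroblast marker as lower, beside 28.6% of all genes. With all arrays the median differences were -0.63 for goblet, -0.46 for Paneth, -0.31 for tuft and -1.12 for leukocyte markers, beside -0.58 for the hormone genes. The Paneth marker median was 10.60 to 10.78 on the controls and 12.09, 9.16 and 9.15 on transgenic replicates 1, 2 and 3. The leukocyte marker median was 8.28 to 8.51 and 5.68, 7.72 and 7.75. The part of these cell types in the members' differences was not tested.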

How the data were processed

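The deposited values are log2 signals of whole-transcript mouse gene arrays, and the submitters' processing notes name RMA (background correction, quantile normalization and probe summary) and Partek 6.5. Per the labels, 250 ng of total RNA was used per array. RMA brings arrays to nearly the same distribution and compresses dim signals, so folds of dim genes can be understated. Columns were mapped to samples by accession and grouped by title, 3 control and 3 transgenic. Of 35399 rows, 21789 had 1 gene symbol in the platform annotation. The row with the highest mean was kept per gene, which left 19938 genes with no filter. Chromosomes came from a RefSeq table of GRCm38.p6.

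Groups were compared in R 4.3.3 with the lmFit and eBayes functions of limma 3.58.1, with no trend. The p-values of all genes were adjusted together by Benjamini-Hochberg, and the threshold was 0.05. The code was tested on simulated data. Gene lists were described by counts and medians. Named genes were all members, Msi1 and Msi2, up to 4 per list with the smallest p plus genes without which a group sentence would mislead, and 3 most correlated genes per member that passed. Predicted genes, genes with clone-type names and small RNAs were passed over in that ranking by correlation. Members and lists were chosen with earlier results of these data known. The alternatives comprised 16 settings, and the number of arrays limits the precision.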

Additional observations from a re-analysis of the deposited data

How the results depend on the processing

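With all arrays, 2 members were lower and 0 higher. The 8 members with values kept their direction under quantile normalization and equal array medians, and of the 123 member results under other settings 104 kept direction and side of the threshold, 12 lost the call (6 each for Neurog3 and Rfx6), 4 gained one (3 for Neurod1, 1 for Isl1) and 3 reversed. The reversals were Neurod1 at -0.045 without transgenic replicate 2, and Pax6 at 0.040 without transgenic replicate 1 and at 0.046 with the description numbers as a block. Part of this tally was fixed in advance. Each member had 1 row, so the mean of a gene's rows could not change its difference, and the threshold of 0.1 used the reported fit. The all-rows, trend and robust, dim-filter and title-block settings also left every tested difference unchanged, so no direction could reverse there. Leaving out each array in turn gave -0.045 to 0.453 for Neurod1 and -0.229 to 0.040 for Pax6. The same fits gave 0 to 2 members lower and 0 to 1 higher, 324 to 2900 of all genes lower and 359 to 2800 higher, 1 to 8 Notch and secretory genes lower and 0 to 3 higher, 0 to 2 bHLH partners lower and 0 to 2 higher, 1 to 3 other endocrine factors lower, 1 to 8 hormone genes lower, and 0 to 1 granule genes lower and 0 to 2 higher. Fewer arrays leave less precision, and only leaving out transgenic replicate 1 raised the count of all genes.

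Deviations from the group means did not correlate positively between arrays with the same title number (correlations -0.0696, -0.168 and -0.122). With 3 arrays per group and transgenic replicate 1 standing apart, these correlations cannot show whether the arrays were paired. As a block the title numbers gave 0 members lower, 349 genes lower and 384 higher, 0 Notch genes higher, 0 bHLH partners lower and 0 higher, 1 other endocrine factor lower, 1 hormone gene lower and 0 granule genes lower. The numbers in the descriptions are shared by only 2 arrays per group, with correlations of -0.168 and -0.122. As a block they take transgenic replicate 1 and control replicate 1 out of the contrast and gave every member the same SE of 0.176, so this fit changes more than the pairing. It gave 1 member higher (Neurod1, 0.46), 1963 genes lower and 2056 higher, 7 Notch genes lower, 1 other endocrine factor lower, 5 hormone genes lower and 1 granule gene higher. Array weights gave 1 member higher and 3 lower (with Isl1 at -0.36, limma adjusted p = 0.022), 2924 genes lower and 2846 higher, 7 Notch genes lower and 2 higher, 6 hormone genes lower, and 3 granule genes lower and 1 higher. Leaving out the dimmest 40% of genes removed Rfx6, Pax4, Pax6, Isl1 and Nkx2-2 from the test, so that 1 member was lower, and 1 other endocrine factor was lower. Trend and robust settings gave 0 Notch genes and 1 bHLH partner higher. The mean of a gene's rows gave 0 Notch genes higher. With all rows tested 0 Notch genes and 1 bHLH partner were higher and 1 other endocrine factor lower. At an adjusted p under 0.1, 5 hormone genes were lower. The cause of these shifts was not tested.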
